A study of Mus musculus with 16 samples.

Results

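The amino acid transporter families described here are the genes whose symbols place them in solute carrier families 1, 3, 6, 7, 36, 38 and 43, taken from a liver expression table by symbol alone and with 3 antisense entries left out. The table listed 52 such genes among 20601. Of these, 32 reached at least 1 TPM (a read count scaled by gene length and by library total) in at least 4 of the 16 libraries and are described one by one, and 20 did not.

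These carriers move amino acids and related compounds across the plasma membrane and the lysosomal membrane. Family 1 holds sodium-driven glutamate carriers and neutral amino acid exchangers, family 38 sodium-coupled glutamine and alanine carriers, and family 43 facilitated carriers of large neutral amino acids. Most family 7 proteins are light chains that need a family 3 heavy chain to reach the membrane, family 36 holds proton-coupled carriers, and family 6 also carries taurine, creatine, betaine and neurotransmitters. In liver, hepatocytes around the portal vein take up glutamine and break it down for urea synthesis, and those around the central vein take up glutamate and ammonia and release glutamine.

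Liver cancer was started in mice by hydrodynamic injection of 19 μg of a human N-Ras plasmid and 1 μg of a human c-Myc plasmid with 2 μg of a Sleeping Beauty transposase plasmid per mouse. From week 4 the mice ate either a ketogenic diet (KD), very rich in fat and almost free of carbohydrate, or, as the comparison, a normal diet (ND). After 4 weeks of feeding, at week 8, tumor and nontumor liver were taken from 8 mice. The 4 groups were the tumors and the nontumor liver of each diet, with 4 libraries of polyadenylated RNA in each. Nontumor liver came from the same injected animals, so no group was free of the plasmids. Strain, sex and age were not given in the sources used here, and the labels do not say which tumor and nontumor samples shared a mouse. P-values therefore measure the spread between these samples.

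Levels below are TPM divided by a scaling factor per library, called rescaled TPM, because the listed genes held 7.38% of the TPM total in ND nontumor 4 and 49.96% to 88.45% in the other 15 libraries. Reads recovered for the listed genes ranged from 3518966 to 14074042 per library, the lowest in ND nontumor 4. Differences are log2 fold changes of rescaled TPM + 1 with their standard error (SE), a scale that understates changes of low genes. A gene rose or fell where the Benjamini-Hochberg adjusted p of limma over 13432 tested genes was under 0.05. In bulk tissue, fewer cells of a type and less RNA per cell cannot be told apart.

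The pool of carrier transcripts in these livers was dominated by a few genes. Slc38a3 (SNAT3), the system N carrier that moves glutamine in and out of hepatocytes, had the highest level in each group, with a mean rescaled TPM of 521 ± 71.1 in ND nontumor, 529 ± 156 in ND tumor, 639 ± 245 in KD nontumor and 379 ± 50.03 in KD tumor (SD, n = 4). Slc38a4 (SNAT4), a neutral and cationic amino acid carrier of hepatocytes, and Slc6a13 (GAT2), a liver and kidney carrier of GABA and taurine, came next in nontumor liver. In KD nontumor their means of 267 ± 38.4 and 226 ± 14.1 rescaled TPM overlapped between libraries, and no library of Slc6a13 overlapped the range of the gene that followed, Slc38a2. Together these 3 genes made up 60.001% to 77.93% of the summed level of all 52 genes.

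The summed rescaled TPM of all 52 genes was 1337 ± 85.7 in ND nontumor, 1068 ± 180 in ND tumor, 1506 ± 300 in KD nontumor and 1003 ± 140 in KD tumor (SD, n = 4). The spread in KD nontumor came with 2 libraries, replicates 3 and 4, in which Slc38a3 stood at 783 and 911 rescaled TPM against 427 and 436 in replicates 1 and 2. These 2 libraries also differed from replicates 1 and 2 in other genes. Their summed level of 6 hepatocyte markers was 26733 and 52047 rescaled TPM against 70791 and 77401 in replicates 1 and 2. In ND nontumor that sum was 41546 to 78041, a range that holds KD nontumor 4. Limma gave the 2 libraries weights of 0.307 and 0.488 against 2.48 and 2.88 in replicates 1 and 2. Weights in other groups were low too, such as 0.514 in ND tumor 3 and 0.532 in ND nontumor 4. Family 38 gave 60.2% to 73.0% of the sum across libraries, and family 36 at most 2.70%.

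**Figure D1:**
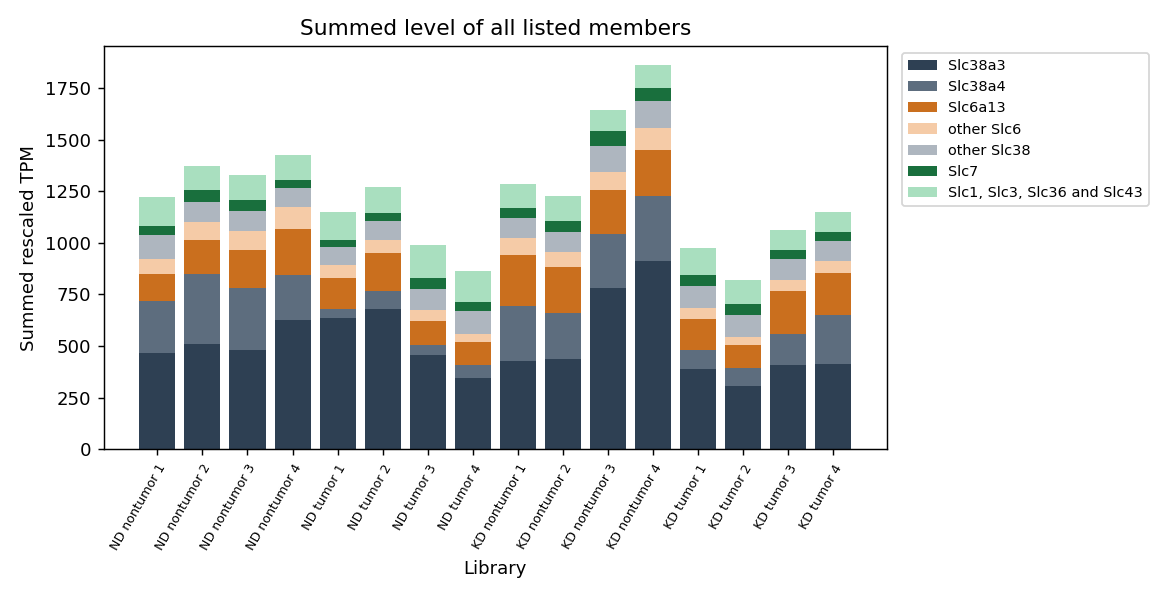
Summed rescaled TPM of the 52 listed genes in each of the 16 libraries (y axis), stacked by gene or family. The 3 lowest segments, Slc38a3, Slc38a4 and Slc6a13, make up 60.001% to 77.93% of each bar, and the highest bar is KD nontumor 4.

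The 20 genes under the level rule were spread over families 1 (4 of 7 genes), 6 (6 of 14), 7 (5 of 12), 36 (2 of 4) and 38 (3 of 10), while all genes of families 3 and 43 passed. They include carriers known from brain (Slc1a3, Slc1a6, Slc6a3, Slc6a15, Slc6a17), from kidney and gut (Slc1a1, Slc6a19, Slc7a9, Slc7a13, Slc36a2) and from testis (Slc36a3), and Slc1a7, Slc6a21, Slc7a3, Slc7a15, Slc38a5 and Slc38a8. Slc38a1 (SNAT1), the glutamine carrier of many dividing cells, was the best covered of them with 551 reads over the 16 libraries and a highest rescaled TPM of 0.757.

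Slc7a11 (xCT), the cystine-glutamate exchanger that feeds glutathione synthesis, had 176 reads over the 16 libraries. They fell as 13 reads in ND nontumor, 110 in ND tumor, 2 in KD nontumor and 51 in KD tumor. Of the tumor reads on KD, 41 came from 1 library. Slc7a9, a light chain of cystine and basic amino acid uptake in kidney, had 22 reads in ND tumor, 39 in KD tumor, 1 in KD nontumor and none in ND nontumor. Neither gene was tested, and at these counts no level or difference is given.

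**Figure D2:**
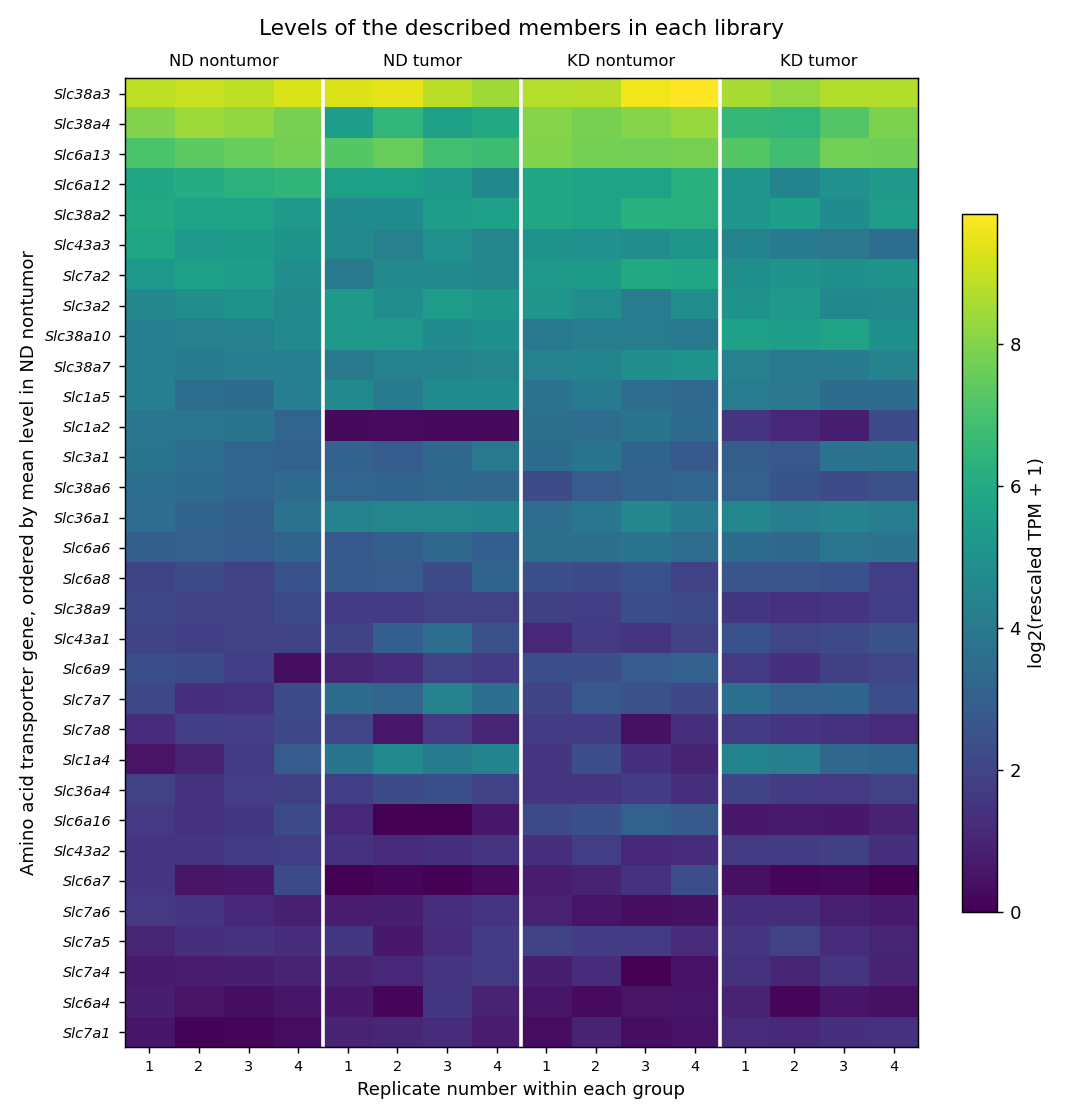
Level of the 32 described genes in each library as log2(rescaled TPM + 1), genes ordered by their mean in ND nontumor and libraries grouped by diet and tissue. The 3 top rows are Slc38a3, Slc38a4 and Slc6a13. The row of Slc1a2 is dark in the 4 ND tumor libraries, and the row of Slc1a4 is brighter in the 8 tumor libraries than in nontumor liver.

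In tumor against nontumor liver on ND, 14 of the 32 genes passed the test, 7 higher and 7 lower. That is 43.8% of them, where 28.7% of all tested genes passed (14.5% higher, 14.1% lower). The groups did not overlap for 13 of the 32, against 27.5% of all tested genes. The median log2 fold change was -0.06 over the 32 genes and 0.00 over all tested genes.

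On KD, 14 of 32 passed as well, 4 higher and 10 lower, where 32.5% of all tested genes passed (16.3% higher, 16.2% lower). Groups did not overlap for 14 genes, against 33.1% of all tested genes, and the median was -0.05 beside 0.01. Both diets shared 4 rises (Slc1a4, Slc7a1, Slc38a10, Slc43a1) and 7 falls (Slc1a2, Slc6a7, Slc6a12, Slc6a16, Slc7a2, Slc38a4, Slc43a3). Slc1a5, Slc7a7 and Slc36a1 passed on ND alone, and Slc38a2, Slc38a7 and Slc38a9 on KD alone, but for none of the 32 did the effect itself differ between the diets by limma's interaction test at an adjusted p under 0.05.

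The scaling moved the balance of directions. When each library was scaled so that its listed genes had the same total, which shifted the median of all genes by 0.21 on ND and -0.26 on KD (log2), 9 rose and 5 fell on ND, and 2 rose and 13 fell on KD. All tested genes shifted the same way, with 2612 higher and 1089 lower on ND, and 1197 and 2826 on KD. On TPM as deposited, with medians shifted by 0.42 and -0.26, 3 rose and 1 fell on ND, and 1 rose and 3 fell on KD. Over all tested genes that scale gave 1094 higher and 324 lower on ND, and 387 and 724 on KD. No gene that passed changed its direction under any of the alternatives. Without ND nontumor 4 the counts were 8 higher and 6 lower on ND, and 4 and 11 on KD. All tested genes then gave 1856 and 1816 on ND, and 2203 and 2210 on KD. The KD count fell to 9 without KD nontumor 4 (4 higher, 5 lower) or without KD tumor 3 (3 and 6). Over all tested genes it fell as well, from 4360 to 3260 and 3509.

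Without both KD nontumor 3 and 4, which left 2 libraries in that group, 5 genes passed on KD. Of these, 2 were higher (Slc1a4, Slc38a10) and 3 lower (Slc1a2, Slc6a16, Slc43a3). The count over all 13432 tested genes fell too, from 4360 to 1961 (879 higher, 1082 lower). In the same fit 14 passed on ND and 5 between the diets in tumors, where 4281 and 2873 of all tested genes passed. The 9 KD calls lost this way were those of Slc6a7, Slc6a12, Slc7a1, Slc7a2, Slc38a2, Slc38a4, Slc38a7, Slc38a9 and Slc43a1, with limma adjusted p of 0.0751 to 0.523. The level rule also ties some members to their direction. Slc1a2, Slc6a7 and Slc6a16 reached it through nontumor libraries, with 3, 0 and 2 tumor libraries at 1 TPM or more. Slc7a1 and Slc7a4 reached it through tumors, with 1 nontumor library each. For these genes inclusion and difference are not independent, so the counts of members called or without overlap are descriptions.

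**Figure D3:**
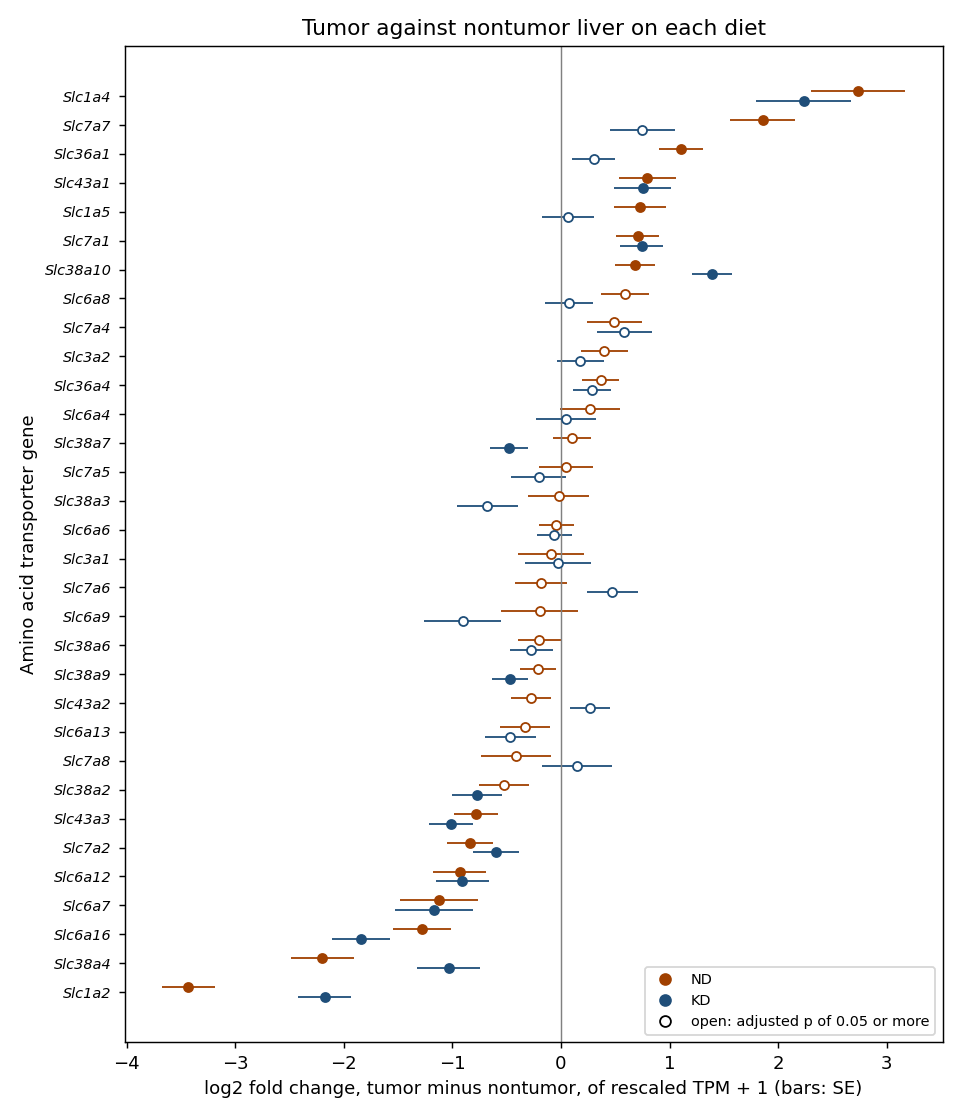
Log2 fold change of tumor against nontumor liver for the 32 described genes (x axis; bars are SE), ND in orange and KD in blue, filled where the adjusted p was under 0.05. Slc1a4 lies at the top at 2.74 on ND and 2.23 on KD, and Slc1a2 at the bottom at -3.43 and -2.18.

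Among the glutamate and neutral amino acid carriers of family 1, Slc1a2 showed the deepest fall of the 32 genes in tumors on both diets. Slc1a2 (GLT-1; chromosome 2, 102658659 to 102790784, plus strand, GRCm38) is a sodium-driven glutamate carrier that in liver marks hepatocytes around the central vein. In ND nontumor its rescaled TPM was 13.6, 13.6, 12.8 and 8.23, and in ND tumor 0.194, 0.211, 0.151 and 0.197, from 11 to 19 reads per library. The 4 ND tumors lay close together and far below the nontumor range, with a mean 64.1-fold lower and a log2 fold change of -3.43 ± 0.24 (SE; limma adjusted p = 8.12e-08).

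On KD the nontumor libraries stood at 11.4, 10.3, 12.6 and 9.85 rescaled TPM and the tumors at 1.84, 1.12, 0.768 and 3.67. The groups again did not overlap, but each KD tumor was above each ND tumor. The fall on KD was 5.97-fold in the mean, -2.18 ± 0.24 on the log2 scale (limma adjusted p = 1.22e-05).

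Slc1a4 (ASCT1; chromosome 11, 20302180 to 20332713, minus strand), a sodium-dependent exchanger of alanine, serine and cysteine, had the largest rise on both diets. On ND its rescaled TPM was 0.424, 0.950, 2.15 and 6.01 in nontumor and 13.0, 24.1, 15.0 and 20.5 in tumor. The KD libraries gave 1.91, 4.07, 1.53 and 0.906 in nontumor and 20.8, 17.4, 8.53 and 8.09 in tumor. The lowest tumor on either diet was above the highest nontumor library, and ND nontumor 4 was the highest of its group. The rise was 2.74 ± 0.43 on ND (limma adjusted p = 0.000217) and 2.23 ± 0.43 on KD (limma adjusted p = 0.00113), 7.62-fold and 6.52-fold in the means.

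Slc1a5 (ASCT2; chromosome 7, 16781340 to 16798274, plus strand) is the glutamine exchanger of many tumor cells. It stood at 17.7, 10.7, 10.04 and 17.3 rescaled TPM in ND nontumor and 25.2, 15.9, 26.3 and 26.6 in ND tumor, so ND tumor 2 lay inside the nontumor range. On KD it was 12.6, 16.2, 10.6 and 9.18 in nontumor and 16.8, 14.0, 10.1 and 10.2 in tumor. Its log2 fold change was 0.73 ± 0.24 on ND, which passed, and 0.07 ± 0.24 on KD. The ND call was lost without any 1 of ND nontumor 2, ND nontumor 3, ND tumor 1, ND tumor 3 or ND tumor 4, with limma adjusted p of 0.0946, 0.0984, 0.0720, 0.0745 and 0.0716.

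The promoter windows of the 3 genes with the largest rises on ND, Slc1a4, Slc7a7 and Slc36a1, are shown because their windows hold letters of 2 known elements. Of these genes only Slc1a4 also passed on KD. The windows were chosen with the letters known, so the matches in them are a description. The window of Slc1a2, which had the deepest fall, held neither element and is not printed. Each window covers 250 bases before and 50 after the RefSeq transcript start (GRCm38.p6), on the strand of the gene. Capitals mark TGATGCAA, or its reverse complement TTGCATCA, the C/EBP-ATF element that ATF4 is known to bind, in the first pair, and CACGTG, the E-box that MYC is known to bind, in the third.
Slc1a4, chr11:20332664-20332963, minus strand: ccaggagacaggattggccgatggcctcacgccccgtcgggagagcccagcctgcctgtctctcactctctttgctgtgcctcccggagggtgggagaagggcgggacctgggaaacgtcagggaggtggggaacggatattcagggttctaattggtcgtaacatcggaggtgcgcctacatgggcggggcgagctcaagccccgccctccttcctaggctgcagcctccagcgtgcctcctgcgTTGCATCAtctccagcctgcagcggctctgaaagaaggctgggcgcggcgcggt
Slc7a7, chr14:54417895-54418194, minus strand: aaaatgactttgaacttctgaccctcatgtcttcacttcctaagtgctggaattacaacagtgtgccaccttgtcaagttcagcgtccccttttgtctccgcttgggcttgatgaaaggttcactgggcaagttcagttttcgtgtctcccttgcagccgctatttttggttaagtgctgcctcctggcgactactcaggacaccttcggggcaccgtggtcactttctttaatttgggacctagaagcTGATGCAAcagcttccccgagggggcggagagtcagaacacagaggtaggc
Slc36a1, chr11:55204090-55204389, plus strand: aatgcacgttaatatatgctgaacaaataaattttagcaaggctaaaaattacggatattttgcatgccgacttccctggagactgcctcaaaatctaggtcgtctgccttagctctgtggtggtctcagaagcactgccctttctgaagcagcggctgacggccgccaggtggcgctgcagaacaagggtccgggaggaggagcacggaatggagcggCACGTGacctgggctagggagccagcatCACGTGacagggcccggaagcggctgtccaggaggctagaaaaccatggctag

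In the Slc1a4 window the element starts at base 247, on the reverse strand, and in that of Slc7a7 at base 250, both next to the start at base 251. RefSeq gives Slc7a7 another start, whose window (54417653 to 54417952) holds that element at base 8, 243 bases before the start. The window printed lies beyond the end of the GENCODE span given for the gene. The E-boxes of Slc36a1 start at bases 220 and 248. RefSeq windows were matched for 37 of the 52 genes. TGATGCAA, searched on both strands, was in 3 of these 37 genes (8.11%: Slc1a4, Slc7a7 and Slc7a11), and in 1.03% of 27025 genes with a window. The looser TGATGNAA, which contains it, was in 4 (10.8%, with Slc6a21) against 4.51%, and CACGTG in 8 (21.6%) against 8.09%. CACGTG was in the windows of Slc1a6, Slc1a7, Slc6a3, Slc6a16, Slc36a1, Slc38a5, Slc38a7 and Slc43a1, of which Slc6a16 fell on both diets and 4 were under the level rule. The matches describe the letters, and binding was not measured.

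The heavy chains of family 3 did not pass in any of the comparisons. Slc3a2 (4F2hc), partner of most plasma membrane light chains, had a mean rescaled TPM of 26.7 ± 4.00 in ND nontumor, 35.6 ± 5.82 in ND tumor, 26.4 ± 7.23 in KD nontumor and 29.7 ± 7.30 in KD tumor (SD, n = 4), with log2 fold changes in tumors of 0.40 ± 0.22 on ND and 0.18 ± 0.22 on KD. Slc3a1 (rBAT), partner of Slc7a9 in kidney, stood at 9.27 to 9.74 in the 4 group means. Its exons share 26.5% of their bases with Prepl on the opposite strand, and the use of strand in counting was not stated, so reads of the 2 genes may be mixed.

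Among the light chains, Slc7a7 (y+LAT1; chromosome 14, 54369442 to 54417780, minus strand) exchanges basic for neutral amino acids and is also expressed by macrophages. It rose on ND, from 3.40, 1.52, 1.67 and 3.85 rescaled TPM in nontumor to 10.002, 8.29, 19.4 and 10.9 in tumor. The KD values were 2.99, 5.44, 4.49 and 3.22 in nontumor and 11.1, 7.53, 7.96 and 4.15 in tumor. Each ND tumor was above each ND nontumor library, and KD tumor 4 lay inside the KD nontumor range. The rise was 1.86 ± 0.30 on ND (limma adjusted p = 0.000246), and the value on KD was 0.75 ± 0.30 (limma adjusted p = 0.0654). The difference between the diets did not pass the interaction test (-1.11 ± 0.42, limma adjusted p = 0.190).

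Of the monocyte and macrophage markers some rose in tumors as well. The summed level over 7 listed markers was 189 to 250 rescaled TPM in ND nontumor and 613 to 2191 in ND tumor, and 80.4 to 307 in KD nontumor and 865 to 2682 in KD tumor, with none at 0 in any library. Most of it in tumors was Spp1, which is also a marker of bile duct cells and alone stood at 501 to 1899 in ND tumor. Without Spp1 the sum was 77.9 to 108 in ND nontumor and 111 to 292 in ND tumor, and 46.9 to 85.0 in KD nontumor and 95.8 to 172 in KD tumor. Of 7 tested, 2 rose on ND (Cd14, Spp1) and 3 on KD (also Lyz2), where Slc7a7 did not pass. Markers of Kupffer cells went the other way, and of 5 tested 5 fell on ND and 4 on KD. The part of either list in the rise of Slc7a7 was not tested. Oxa1l overlaps 7% of the exon bases of Slc7a7 on the opposite strand.

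The other light chains were low and did not pass. Slc7a5 (LAT1), the leucine carrier of growing cells, had group means between 1.41 ± 0.27 (ND nontumor) and 2.16 ± 0.60 rescaled TPM (KD nontumor), with log2 fold changes in tumors of 0.04 ± 0.25 on ND and -0.21 ± 0.25 on KD. Slc7a8 (LAT2), a broad neutral amino acid exchanger, lay between 1.66 ± 0.94 and 2.44 ± 0.82. Slc7a6 (y+LAT2), a relative of Slc7a7, lay between 0.493 ± 0.259 (KD nontumor) and 1.48 ± 0.60 (ND nontumor).

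The cationic carriers Slc7a1 and Slc7a2, which take up arginine, lysine and ornithine, moved in opposite directions in tumors on both diets. Slc7a1 (CAT1; chromosome 5, 148327410 to 148399904, minus strand), found in most dividing cells, was at 0.513, 0.0762, 0.125 and 0.246 rescaled TPM in ND nontumor and 0.903, 1.08, 1.36 and 0.731 in ND tumor. With KD the levels were 0.252, 0.962, 0.289 and 0.403 in nontumor and 1.33, 1.22, 1.53 and 1.68 in tumor. Tumors and nontumor liver did not overlap on either diet, at levels that rest on 4 to 136 reads per library. The log2 rise was 0.71 ± 0.20 on ND and 0.74 ± 0.20 on KD. Slc7a1 met the level rule through tumors (7 tumor libraries and 1 nontumor library), which favours a rise and a lack of overlap. On KD the calls of Slc7a1 and Slc7a2 were both lost without both KD nontumor 3 and 4 (limma adjusted p of 0.109 and 0.425).

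Slc7a2 (CAT2; chromosome 8, 40862396 to 40922308, plus strand), the main arginine carrier of hepatocytes, was many times higher than Slc7a1 per length in each library. It was at 37.1, 48.4, 43.9 and 26.9 rescaled TPM in ND nontumor and 14.8, 23.7, 24.7 and 22.1 in ND tumor, and at 37.8, 39.8, 62.6 and 54.3 in KD nontumor and 28.9, 33.4, 29.5 and 32.5 in KD tumor. The groups did not overlap on either diet, and the log2 fall was -0.84 ± 0.21 on ND and -0.60 ± 0.21 on KD. The KD call was lost without any 1 of KD nontumor 3, KD nontumor 4 or the KD tumors 1, 2, 3 and 4 (limma adjusted p of 0.128, 0.105, 0.0863, 0.0590, 0.0846 and 0.0558). Slc7a4, a relative whose transport is not known, did not pass, with group means of 0.630 to 1.53 rescaled TPM. Its ND tumors lay above ND nontumor liver without overlap. However, it met the level rule through tumors (7 tumor libraries and 1 nontumor library), which favours a rise. Its exons share 13.3% of their bases with P2rx6 on the opposite strand.

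Carriers of the lysosomal membrane, which export amino acids and signal to mTORC1, passed on different diets, though no interaction passed. Slc36a1 (PAT1; chromosome 11, 55204350 to 55236330, plus strand), a proton-coupled carrier of small neutral amino acids, was at 10.4, 8.00, 6.86 and 11.6 rescaled TPM in ND nontumor and 18.8, 21.2, 22.0 and 20.4 in ND tumor. Libraries on KD gave 10.4, 13.6, 22.7 and 15.7 in nontumor and 21.7, 17.4, 19.3 and 16.9 in tumor. The ND groups were well apart, whereas KD nontumor 3 was above each KD tumor. The rise on ND was 1.10 ± 0.20 (limma adjusted p = 0.000715), the value on KD was 0.30 ± 0.20, and the interaction was -0.80 ± 0.29 (limma adjusted p = 0.169).

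Slc38a7 (SNAT7), the glutamine exporter of lysosomes, and Slc38a9, the arginine sensor of lysosomes, fell on KD by small amounts. Slc38a7 was at 19.0, 20.5, 28.1 and 31.4 rescaled TPM in KD nontumor and 18.7, 14.9, 15.5 and 19.8 in KD tumor, a log2 change of -0.48 ± 0.17. Slc38a9 was at 2.63, 2.43, 4.15 and 3.52 in KD nontumor and 2.01, 1.64, 1.84 and 2.52 in KD tumor, a log2 change of -0.47 ± 0.17. For both, the highest tumor reached into the nontumor range.

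Neither of these calls was stable. That of Slc38a7 was lost without any 1 of 9 libraries (KD nontumor 3 and 4, KD tumor 1, 2 and 3, ND nontumor 1, 2 and 3, and ND tumor 2; limma adjusted p of 0.0528 to 0.154). That of Slc38a9 was lost without any 1 of 7 (KD nontumor 3 and 4, KD tumor 1, 2 and 3, and ND nontumor 1 and 2; limma adjusted p of 0.0507 to 0.145). On ND the log2 values were 0.10 ± 0.17 for Slc38a7 and -0.21 ± 0.17 for Slc38a9. Slc36a4, a proton-independent relative of Slc36a1, did not pass and had group means of 1.88 to 3.38 rescaled TPM.

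Among the glutamine and alanine carriers of family 38, Slc38a4 fell in tumors on both diets while Slc38a3 did not pass. Slc38a4 (chromosome 15, 96994820 to 97055956, minus strand) was at 248, 339, 299 and 222 rescaled TPM in ND nontumor and 44.6, 87.8, 49.0 and 62.1 in ND tumor. On KD it was 266, 224, 260 and 318 in nontumor and 92.5, 86.7, 147 and 235 in tumor. ND tumors and nontumor liver were far apart, and KD tumor 4 reached the KD nontumor range. The log2 fall was -2.20 ± 0.29 on ND (limma adjusted p = 3.88e-05), 4.55-fold in the mean, and -1.03 ± 0.29 on KD, 1.91-fold in the mean.

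Slc38a3 (chromosome 9, 107650634 to 107669530, minus strand) was at 468, 511, 480 and 624 rescaled TPM in ND nontumor and 634, 680, 455 and 346 in ND tumor. On KD it was 427, 436, 783 and 911 in nontumor and 387, 307, 410 and 414 in tumor. ND tumors lay on both sides of the nontumor libraries, with a log2 value of -0.02 ± 0.28. KD tumors all lay below the lowest KD nontumor library, KD tumor 4 by the least and KD tumor 2 by the most, with a log2 value of -0.68 ± 0.28 (limma adjusted p = 0.0737).

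Slc38a2 (SNAT2; chromosome 15, 96687392 to 96699730, minus strand), a carrier known to rise when amino acids are scarce, had lower levels in KD tumors, at 33.9, 43.8, 26.5 and 42.4 rescaled TPM, than in KD nontumor liver, at 56.6, 51.3, 70.7 and 72.8. The KD groups did not overlap, and the log2 fall was -0.77 ± 0.23. The call was lost without KD nontumor 4 (limma adjusted p = 0.0554) or KD tumor 3 (limma adjusted p = 0.0638). On ND it was 62.4, 51.5, 50.7 and 39.3 in nontumor and 25.7, 26.6, 43.4 and 48.6 in tumor, which overlapped, with a log2 value of -0.52 ± 0.23.

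Slc38a10 (chromosome 11, 120103960 to 120151346, minus strand), a glutamine and glutamate carrier of the same family, rose on both diets. It was at 17.98, 18.2, 19.1 and 24.5 rescaled TPM in ND nontumor and 38.6, 37.3, 25.6 and 29.7 in ND tumor, and at 14.9, 16.8, 16.4 and 14.9 in KD nontumor and 48.1, 45.0, 52.6 and 29.4 in KD tumor. Tumors were above nontumor liver without overlap on both diets. The rise was 0.68 ± 0.19 on ND and 1.39 ± 0.19 on KD (limma adjusted p = 5.99e-05), 1.64-fold and 2.78-fold in the means, and the interaction of 0.71 ± 0.26 did not pass (limma adjusted p = 0.181). Exons of Gm11769 share 5.72% of its exon bases on the opposite strand.

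**Figure D4:**
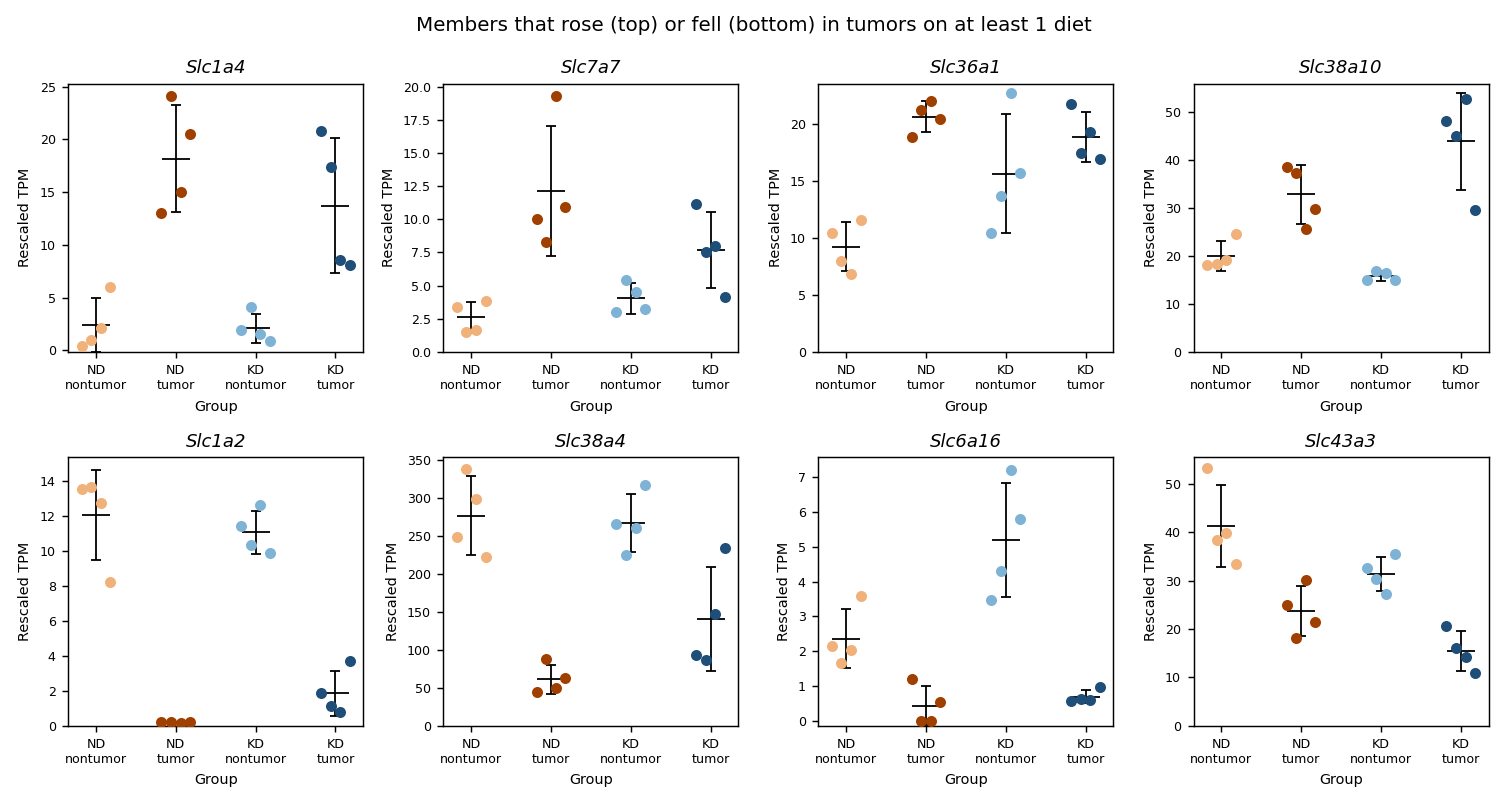
Rescaled TPM of 8 genes by group (points are the 4 libraries; lines are mean and SD), 4 that rose in tumors on at least 1 diet in the top row and 4 that fell in the bottom row. Slc1a2 in ND tumor lies at 0.151 to 0.211, and the Slc36a1 groups overlap on KD but not on ND.

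Of family 43, Slc43a1 rose and Slc43a3 fell in tumors on both diets. Slc43a1 (LAT3; chromosome 2, 84838850 to 84863594, plus strand), a facilitated carrier of branched-chain amino acids, was at 3.01, 2.50, 2.80 and 3.06 rescaled TPM in ND nontumor and 3.05, 6.71, 10.6 and 4.40 in ND tumor. On KD its values were 1.15, 2.17, 1.75 and 2.73 in nontumor and 4.50, 3.15, 3.55 and 4.44 in tumor. ND tumor 1 was just inside the nontumor range, and the KD groups did not overlap. The log2 rise was 0.80 ± 0.26 on ND and 0.75 ± 0.26 on KD (limma adjusted p = 0.0364).

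The ND call of Slc43a1 was lost without any 1 of ND nontumor 1, 2 and 3 and ND tumor 2 and 3 (limma adjusted p of 0.0530, 0.0763, 0.0616, 0.0767 and 0.103). The KD call was lost without any 1 of KD nontumor 1 and 3 and KD tumor 1, 3 and 4 (limma adjusted p of 0.100, 0.0790, 0.0874, 0.0588 and 0.0771). Slc43a2 (LAT4), its close relative, did not pass, with group means of 1.60 to 2.15 rescaled TPM.

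Slc43a3 (chromosome 2, 84936579 to 84958509, plus strand) lies close to Slc43a1 but is known as a carrier of purine nucleobases, not of amino acids. It was at 53.3, 38.3, 39.9 and 33.4 rescaled TPM in ND nontumor and 24.9, 18.2, 30.1 and 21.4 in ND tumor, and at 32.5, 30.3, 27.3 and 35.5 in KD nontumor and 20.7, 16.1, 14.1 and 10.8 in KD tumor. Tumors were below nontumor liver without overlap on both diets, by -0.78 ± 0.20 on ND and -1.01 ± 0.20 on KD on the log2 scale.

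In family 6, 3 of the 8 described genes fell in tumors on both diets and none rose. Of all tested genes 14.1% fell on ND and 16.2% on KD. Without both KD nontumor 3 and 4 the KD calls of Slc6a7 and Slc6a12 were lost (limma adjusted p of 0.286 and 0.0751). For Slc6a7 and Slc6a16 the level rule favours a fall, as said above. Slc6a12 (BGT1; chromosome 6, 121343076 to 121365775, plus strand), which takes up betaine and GABA, was at 57.0, 67.5, 79.7 and 85.7 rescaled TPM in ND nontumor and 45.8, 47.8, 37.6 and 22.8 in ND tumor. The KD libraries stood at 58.8, 50.5, 50.2 and 75.2 in nontumor and 34.4, 20.6, 30.5 and 39.0 in tumor. The groups did not overlap on either diet, and the log2 fall was -0.93 ± 0.24 on ND and -0.91 ± 0.24 on KD.

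Slc6a13, which lies next to Slc6a12 on the same strand (121300227 to 121337733), did not pass. It was at 131, 166, 184 and 220 rescaled TPM in ND nontumor and 152, 184, 115 and 109 in ND tumor, and at 247, 220, 216 and 222 in KD nontumor and 150, 111, 210 and 204 in KD tumor. The KD tumors all lay below the KD nontumor libraries, 2 of them by a small margin. Its log2 values were -0.33 ± 0.23 on ND and -0.47 ± 0.23 on KD.

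Slc6a16 (chromosome 7, 45241085 to 45273367, plus strand), an orphan carrier without a known substrate, was at 2.14, 1.67, 2.04 and 3.59 rescaled TPM in ND nontumor and 1.19, 0, 0 and 0.539 in ND tumor. On KD it was 3.48, 4.30, 7.21 and 5.79 in nontumor and 0.579, 0.631, 0.599 and 0.961 in tumor. Tumors were below nontumor liver on both diets, and 2 ND tumors had no read. The log2 fall was -1.28 ± 0.27 on ND (limma adjusted p = 0.00195) and -1.84 ± 0.27 on KD (limma adjusted p = 0.000119).

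Slc6a7 (PROT), a proline carrier known from brain, rested on 51 reads or fewer in each library and met the level rule through 4 nontumor libraries alone. It was at 1.93, 0.446, 0.597 and 3.57 rescaled TPM in ND nontumor and 0, 0.115, 0 and 0.237 in ND tumor, and at 0.709, 0.902, 1.68 and 4.05 in KD nontumor and 0.352, 0.101, 0.150 and 0 in KD tumor. It was low in tumors on both diets, and replicate 4 was the highest nontumor library on both. The log2 fall was -1.12 ± 0.36 on ND and -1.17 ± 0.36 on KD (limma adjusted p = 0.0201). The ND call was lost without any 1 of ND nontumor 1 and 4 and ND tumor 1 and 3 (limma adjusted p of 0.0735, 0.0923, 0.0600 and 0.0566), and the KD call without KD nontumor 4 (limma adjusted p = 0.0805).

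The other family 6 genes did not pass in tumors against nontumor liver. Slc6a8, the creatine carrier, had group means of 3.56 ± 0.79 rescaled TPM in ND nontumor and 5.95 ± 1.65 in ND tumor (log2 0.59 ± 0.22, limma adjusted p = 0.0564), and 3.91 ± 0.75 and 4.26 ± 1.22 on KD. Slc6a9 (GlyT1), the glycine carrier, was at 4.19, 4.14, 6.10 and 7.18 in KD nontumor and 2.20, 1.58, 2.67 and 3.17 in KD tumor, which did not overlap (log2 -0.90 ± 0.36, limma adjusted p = 0.0617). It ranged from 0.276 to 4.17 in ND nontumor, lowest in ND nontumor 4, and its exons share 27.8% of their bases with Ccdc24 on the opposite strand. Slc6a4, the serotonin carrier, had group means of 0.406 to 0.920.

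Between the diets, 5 of the 32 genes passed in tumors, 3 higher on KD (Slc1a2, Slc38a4, Slc6a6) and 2 lower (Slc1a5, Slc38a6). That is 15.6% of them, where 15.8% of all tested genes passed (7.15% higher, 8.67% lower), so the count was near the background. The groups did not overlap for 4 genes, against 22.9% of all tested genes, and the median was -0.07 beside 0.03. With that same total in each library, which shifted the median of all genes by -0.33, 1 was higher and 7 were lower, and on TPM as deposited 0 passed. All tested genes gave 273 higher and 2606 lower with that total, and 113 passed on TPM as deposited. The count fell to 1 without KD tumor 3, without KD tumor 4 or without ND tumor 1, and to 3 without ND tumor 3 or without ND tumor 4. Over all tested genes the count fell too, from 2126 to 1045, 1115, 1156, 1521 and 1887 in that order.

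Slc1a2 was 9.85-fold higher in the mean in KD tumors than in ND tumors (log2 1.16 ± 0.24, limma adjusted p = 0.00675), with the values given above, and this call held without any 1 library. In nontumor liver the diets differed by -0.09 ± 0.24. The interaction, the diet effect in tumor minus that in nontumor liver, was 1.26 ± 0.34 and did not pass (limma adjusted p = 0.0901). Slc38a4 was 2.30-fold higher in KD tumors (1.12 ± 0.29, limma adjusted p = 0.0181), with 1 KD tumor inside the ND tumor range. The call was lost without KD tumor 3, KD tumor 4 or ND tumor 1 (limma adjusted p of 0.0550, 0.0569 and 0.0597). The interaction of Slc38a4 was 1.16 ± 0.41 and did not pass (limma adjusted p = 0.164).

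From group to group, both genes moved with the markers of hepatocytes around the central vein, though not with these alone. The summed level of 10 such markers, none of which is a member of these families, was 2637 to 5615 rescaled TPM in ND nontumor, 121 to 226 in ND tumor, 2052 to 5441 in KD nontumor and 782 to 2121 in KD tumor. Of the 10 tested, 8 fell in tumors on ND, 7 fell on KD, and 8 were higher in KD than in ND tumors, among them Glul, Oat, Cyp2e1 and Rgn. Rhbg and Lgr5 were at 0 in at least 1 ND tumor library. KD tumor 4, the highest KD tumor for Slc1a2 and Slc38a4, also had the highest summed marker level of the KD tumors, 2121, of which Cyp2e1 alone gave 1342. Within groups the order was not always shared. KD tumor 3 had the lowest sum, 782, and the lowest Slc1a2, 0.768, but more Slc38a4 (147) than KD tumors 1 and 2. KD nontumor 3 had the lowest sum of its group, 2052, and the highest Slc1a2, 12.6. Some other lists had the same order of groups. Median sums of 8 markers of hepatocytes around the portal vein were 10663 in ND nontumor, 3723 in ND tumor, 8996 in KD nontumor and 6587 in KD tumor. Those of 6 Kupffer cell markers were 249, 14.0, 127 and 37.4 in the same order, whereas the 6 hepatocyte markers had another order. The part of any of these markers in the differences of Slc1a2 and Slc38a4 was not tested.

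Slc6a6 (TauT; chromosome 6, 91684053 to 91759066, plus strand), the taurine carrier, was higher on KD in tumors. It was at 5.45, 6.78, 8.63 and 6.70 rescaled TPM in ND tumor and 10.03, 8.69, 13.4 and 12.3 in KD tumor, and at 6.82, 7.16, 6.24 and 8.04 in ND nontumor and 11.3, 11.3, 13.3 and 10.3 in KD nontumor. The KD libraries lay above the ND libraries without overlap in both tissues. The difference was 0.61 ± 0.16 in tumors (limma adjusted p = 0.0199) and 0.63 ± 0.16 in nontumor liver (limma adjusted p = 0.179), where few genes passed at all. In tumors against nontumor liver it was -0.04 ± 0.16 on ND and -0.06 ± 0.16 on KD. The call in tumors was lost without KD tumor 3, KD tumor 4 or ND tumor 1 (limma adjusted p of 0.0695, 0.0609 and 0.0636).

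Slc1a5 was lower in KD than in ND tumors by -0.83 ± 0.24 (limma adjusted p = 0.0281), with KD tumor 1 inside the ND tumor range. Slc38a6, a glutamine carrier studied in brain, was at 8.25, 7.88, 8.66 and 8.38 rescaled TPM in ND tumor and 7.13, 4.81, 3.87 and 4.48 in KD tumor, and at 10.6, 10.2, 8.26 and 9.71 in ND nontumor and 3.75, 6.10, 7.71 and 8.15 in KD nontumor. KD was below ND without overlap in both tissues, by -0.64 ± 0.20 in tumors (limma adjusted p = 0.0406) and -0.57 ± 0.20 in nontumor liver (limma adjusted p = 0.371).

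The call of Slc1a5 was lost without any 1 of KD tumor 3 and 4 and ND tumor 1, 3 and 4 (limma adjusted p of 0.0611 to 0.0859). That of Slc38a6 was lost without any 1 of KD tumor 2, 3 and 4, ND nontumor 2 and the 4 ND tumors (limma adjusted p of 0.0517 to 0.123). Slc7a2 had no overlap between the diets in tumors, with KD above ND, and did not pass (0.55 ± 0.21, limma adjusted p = 0.0871).

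**Figure D5:**
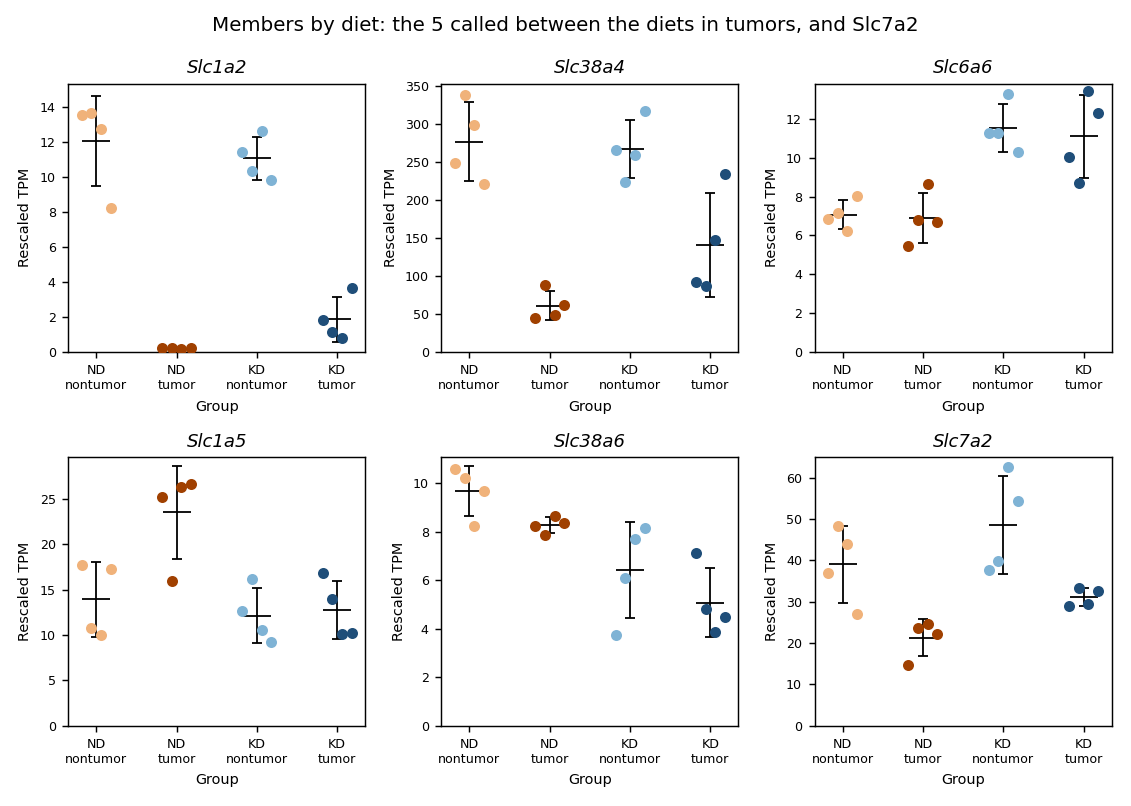
Rescaled TPM by group of the 5 genes that passed between the diets in tumors, and of Slc7a2, which did not pass (points are the 4 libraries; lines are mean and SD). Slc6a6 lies higher and Slc38a6 lower on KD in both tissues, though neither passed in nontumor liver. Slc1a2 and Slc38a4 were higher on KD in tumors, and no interaction passed.

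In nontumor liver 0 of the 32 genes passed between the diets by limma, where 0.0521% of all tested genes passed. At an unadjusted p under 0.05 there were 7 (Slc6a6, Slc6a9, Slc6a16, Slc7a6, Slc36a1, Slc38a6 and Slc38a7). The share of all tested genes at that limit is not given, so the number cannot be judged against a background. Limma-voom on recovered reads called 0, and library weights called 3, where 432 of all tested genes passed. The groups did not overlap for 4 (Slc6a6, Slc38a6, Slc38a7 and Slc38a10), against 5.95% of all tested genes. The interaction also gave 0, where 0.61% of all tested genes passed. At an unadjusted p under 0.05 there were 6 (Slc1a2, Slc7a7, Slc36a1, Slc38a4, Slc38a7 and Slc38a10), again without a background share. Voom called 0. With a pseudocount of 0.1 or with library weights 1 passed, Slc1a2, where 57 and 393 of all tested genes passed. The interaction median was -0.11 over the 32 genes and 0.00 over all tested genes. The comparisons of tumor with nontumor liver and of the diets share libraries, so their values for a gene are not independent.

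Other genes of amino acid handling were counted by lists. Their counts are read against all tested genes, of which 28.7% passed in tumors on ND (14.5% higher, 14.1% lower), 32.5% on KD (16.3% and 16.2%) and 15.8% between the diets in tumors (7.15% and 8.67%). For list counts on KD without both KD nontumor 3 and 4, the background is 1961 of 13432 tested genes. Of 21 tested genes of the ATF4 response, the transcription program that cells use when amino acids are scarce, 12 rose and 2 fell in tumors on ND and 13 rose and 3 fell on KD, with medians of 1.02 and 1.25. That is 66.7% and 76.2% of the list. The serine synthesis enzymes Psat1 and Phgdh and asparagine synthetase Asns rose on both diets, on ND by 3.89 ± 0.42, 4.19 ± 0.49 and 2.78 ± 0.33 and on KD by 3.22 ± 0.42, 4.00 ± 0.49 and 3.49 ± 0.33. Cth, which makes cysteine, fell by -2.70 ± 0.29 on ND and -1.12 ± 0.29 on KD. Between the diets in tumors 3 were higher on KD and 2 lower.

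Of 11 glutamine and glutamate enzymes, 0 rose and 4 fell in tumors on ND, 1 of which, Gpt, was not lower on TPM as deposited, and 5 rose and 2 fell on KD, 36.4% and 63.6% of the list. Without both KD nontumor 3 and 4 the KD count was 2 in all. Glul, the glutamine synthetase of hepatocytes around the central vein, fell by -2.92 ± 0.25 on ND and -1.20 ± 0.25 on KD, and its interaction passed (1.72 ± 0.36, limma adjusted p = 0.0412), though not without both KD nontumor 3 and 4 or with a fixed replicate block. In KD tumors 5 were higher than in ND tumors and 0 lower, 45.5% of the list. The 3 with the smallest adjusted p were Glul (1.69 ± 0.25), the alanine aminotransferase Gpt2 (0.91 ± 0.18) and Ppat, which uses glutamine for purine synthesis (1.07 ± 0.24). On KD the rises in tumors with the smallest adjusted p were those of Gpt2 (0.88 ± 0.18), Gfpt1 (0.88 ± 0.20) and Glud1 (0.93 ± 0.24).

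Of 27 genes that sense amino acids upstream of mTORC1, 6 rose and 0 fell on ND, and 6 rose and 3 fell on KD, 22.2% and 33.3% of the list, which is below the background on ND and near it on KD. Without both KD nontumor 3 and 4 the KD count was 5 in all. Rragd (1.64 ± 0.27), Sesn2, a leucine sensor (1.502 ± 0.264), and Castor1, an arginine sensor (1.27 ± 0.33), had the smallest adjusted p on ND, and Lamtor1 (1.21 ± 0.22), Seh1l (0.83 ± 0.17) and Sesn3 (0.76 ± 0.19) on KD, where Nprl2 fell by -0.86 ± 0.19. Between the diets in tumors 3 were higher on KD and 2 lower.

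Of 18 amino acid and peptide carriers outside the 7 families, 0 rose and 5 fell on ND and 1 rose and 5 fell on KD, with medians of -0.48 and -0.35. The shares, 27.8% and 33.3%, were near the background, and without both KD nontumor 3 and 4 the KD count was 2. The aromatic amino acid carrier Slc16a10 fell by -1.95 ± 0.21 and -1.53 ± 0.21, and the mitochondrial glutamate carrier Slc25a22 by -1.90 ± 0.24 and -1.55 ± 0.24. Slc25a39, which imports glutathione into mitochondria, rose on KD (0.95 ± 0.24). Between the diets in tumors 1 was higher (Slc25a44) and 1 lower (Slc25a38).

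Of 4 tested partners of carriers at the cell surface, 0 rose and 1 fell on ND (Ggt5) and 2 rose (Anpep, Bsg) and 2 fell (Ggt5, Ggt6) on KD, with 0 between the diets in tumors. Of 7 genes of glutathione synthesis, 2 rose (Ggct, Gss) and 3 fell (Oplah, Gclm, Chac2) on ND, and 2 rose (Ggct, Gss) and 1 fell (Oplah) on KD, with 0 between the diets in tumors. Between the diets in nontumor liver 0 genes passed in any of the 6 lists.

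Markers of further cell types moved in the same comparisons. Of 6 hepatocyte markers 0 passed on ND and 2 rose on KD, and of 6 proliferation markers 6 rose on both diets. Of 8 markers of hepatocytes around the portal vein 5 fell on both diets. Of 5 tested Kupffer cell markers 5 fell on ND and 4 on KD, with Timd4, Vsig4 and Marco at 0 in at least 1 ND tumor library. Of 5 sinusoidal endothelial markers 3 fell on ND and 1 on KD, and of 5 capillary and pan-endothelial markers 4 rose on ND and 1 on KD. Of 6 tested T and NK cell markers 4 rose on ND and 1 on KD, and of 4 tested red blood cell markers 4 fell on ND and 0 on KD.

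Between the diets in tumors, where Slc1a2 and Slc38a4 were higher on KD, markers other than those of the central vein zone moved too. Of 5 tested Kupffer cell markers 2 were higher on KD (Cd5l, Clec4f), and of 5 sinusoidal endothelial markers 3 were higher (Clec4g, Stab2, Oit3) and 1 lower (Stab1). Of 5 capillary and pan-endothelial markers 3 were lower (Pecam1, Cd34, Cdh5), while of 6 hepatocyte markers and 8 of hepatocytes around the portal vein 0 passed. Of 3 tested neutrophil markers 1 was higher (S100a8), with a median log2 fold change of 1.86 over the list. Of 4 tested bile duct markers 1 was lower (Sox9), while the median of that list was 0.24. Their part in the differences of the carriers was not tested.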

How the data were processed

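Polyadenylated RNA of 16 tumor and nontumor liver samples was sequenced. Per the submitters' processing notes, FastQC, HISAT2, SAMtools, featureCounts and the build mm10 were used, and the authors deposited TPM values for 20601 genes. The annotation and the use of strand are not given in the sources used here, and the nontumor columns, which carry P where titles carry N, were matched by diet letters and number. Whole reads were recovered from TPM steps for 20601 genes (tolerance 0.001 reads). TPM was divided by median-of-ratios factors over 11798 genes. The 13432 genes that reached 1 TPM in 4 or more libraries were tested with limma 3.58.1 (R 4.3.3; variance trend, pseudocount 1, 16 libraries in 1 fit, no block), adjusted by Benjamini-Hochberg. The step was tested on simulated data. Gene positions came from GENCODE M21 (GRCm38) and promoters from RefSeq.

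Genes named are all members that reached the level rule. Of the members under it, 1 is counted but not reported here. In a comparison, the 3 genes that rose most and the 3 that fell most have full statistics, and up to 3 genes per list and direction are named by smallest adjusted p. Members, lists and tests were chosen with earlier results of these data known. Alternatives were TPM as deposited, an equal total of the listed genes, a pseudocount of 0.1, no filter, only the groups compared, library weights, replicate blocks and each library left out. Limma-voom on recovered reads and the fit without both KD nontumor 3 and 4 were added after the data were seen.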

Additional observations from a re-analysis of the deposited data

Results flagged for a closer look

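In each of the 32 described genes and 4 groups, 128 in all, the highest and lowest library were compared with the other 3. In 4 of them the gap to the nearest library took more of the group's range than Dixon's 95% limit for 4 samples, which chance exceeds in about 1 in 20 groups. Slc1a2 in ND nontumor 4 was at 8.23 rescaled TPM (229 reads), with the nearest other library at 12.8. Slc1a5 in ND tumor 2 was at 15.9 (336 reads), with the nearest at 25.2. Slc6a4 in KD nontumor 2 was at 0.229 (7 reads), with the nearest at 0.442. Slc6a16 in KD tumor 4 was at 0.961 (15 reads), with the nearest at 0.631.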

How the results depend on the processing

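Of the 33 calls of a carrier in a comparison, none changed direction under any alternative. 33 of 33 were kept with a pseudocount of 0.1, with the replicate block as a random effect and with voom, 28 with only the groups compared, 27 each with the equal total, no filter and library weights, and 8 on TPM as deposited. With a fixed replicate block 23 were kept and 5 lost, and the diet comparisons had no value. The 5 lost were Slc43a1 on ND and Slc38a2, Slc38a7, Slc38a9 and Slc43a1 on KD (limma adjusted p of 0.0513 to 0.0752). Without both KD nontumor 3 and 4, 24 were kept, 5 carriers and 1961 genes passed for tumor on KD, 88 genes in nontumor liver and 20 for the interaction. Leaving out each library in turn kept 20 and lost 13 for at least 1 library. On TPM as deposited 4 carriers (14 as reported) and 1418 genes (3852) passed for tumor on ND, 4 carriers (14) and 1111 genes (4360) on KD, and 0 carriers (5) and 113 genes (2126) between the diets in tumors. The cause was not tested. Between the diets in tumors the equal total gave 8 carriers and library weights 3, where 2879 and 2137 of all tested genes passed. In nontumor liver library weights gave 3 carriers (0), and all genes numbered 7 as reported, 65 on TPM as deposited, 13 with the equal total, 4 with a pseudocount of 0.1, 2 with only the groups compared and 432 with library weights. For the interaction 1 carrier passed (0) with a pseudocount of 0.1 or library weights, and all genes numbered 82, then 14 as deposited, 546 with the equal total, 32 without a filter, 393 with library weights and 33 with a fixed replicate block. Leaving out 1 library gave 12 to 15 carriers for tumor on ND, 9 to 17 on KD, 1 to 6 between the diets in tumors and 0 in nontumor liver and the interaction. Over all genes it gave 3086 to 4055 for tumor on ND and 3260 to 4506 on KD. It gave 1045 to 2509 genes between the diets in tumors, 5 to 12 in nontumor liver and 9 to 187 for the interaction.

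Whether equal replicate numbers mark a shared mouse is not known. The correlations of deviations between same-numbered tumor and nontumor libraries ran from -0.112 to 0.164, and 2 of 8 nontumor libraries correlated best with their own number. With the replicate block as a random effect the carriers numbered 14, 14, 5, 0 and 0, and 3769, 4264, 2119, 7 and 65 genes passed over all. With a fixed block 14 carriers passed on ND and 10 on KD, where 3466 and 3913 of all tested genes passed. Depth limits genes with few reads, such as Slc1a2 in ND tumors, Slc6a7, Slc6a16 and Slc7a1.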
